A study of Mus musculus with 2 samples.

Results

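The 8 genes described here encode proteins of the M-band and proteins that bind the myosin thick filament: Mybpc1, Mybpc2, Mybph, Myom1, Myom2, Myom3, Obsl1 and Smpx. They were chosen by name, and every transcript model assigned to them was kept, which gave 440 models in replicate 1 and 311 in replicate 2, of 8 genes among the 15508 annotated genes with a read. The study was long-read RNA-seq of gastrocnemius, a mixed but mostly fast muscle of the calf. There was 1 group of 2 libraries, which the labels name biological replicates 1 and 2. Both came from male B6CASTF1/J mice of 36 days, the first-generation offspring of a C57BL/6J and a CAST/EiJ parent, obtained from The Jackson Laboratory, with no treatment and no engineered allele named, and both started from 2 µg of total RNA. The labels number the mice separately but tie both to the same donor record, and they describe no second condition, so every comparison below is between 2 libraries, with no replicate behind either side. Transcripts of both parents' alleles were assigned on build mm10, a C57BL/6J genome, and any effect of that on the counts was not tested.

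In a sarcomere, the M-band is the central structure that links neighbouring thick filaments to each other. Myomesin (Myom1), M-protein (Myom2) and myomesin 3 (Myom3) are the crosslinking proteins, and Obsl1 encodes a large adaptor that binds myomesin and titin there. Myosin-binding protein C lies in stripes on both sides of the M-band and tunes how myosin heads engage actin; Mybpc1 encodes the slow and Mybpc2 the fast skeletal form, and Mybph encodes the shorter myosin-binding protein H. Smpx, the small muscular protein, is found at the costameres that tie the outer myofibrils to the cell membrane.

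Each library was a table of reads per transcript model, and a read stands for a sequenced cDNA molecule. Reads in annotated genes came to 1036455 in replicate 1 and 1374068 in replicate 2, and levels below are reads per 1000000 of these (CPM). A gene with 0 reads could still lie at up to 2.89 CPM at the first of these depths and 2.18 CPM at the second. All 5 markers of skeletal muscle fibres and all 5 of slow fibres had reads in both libraries, whereas of 5 markers of cardiac muscle 4 had none (Mybpc3, Myl7, Nppa and Tnni3). The libraries stood apart in read completeness. Incomplete models match part of an annotated transcript, and their share was 11.0% in replicate 1 against 16.1% in replicate 2. Genomic models overlap a gene without matching its splice sites, and their shares were 3.47% and 8.23%.

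The fast form Mybpc2 was the most abundant of the 8 genes in both libraries, and Myom3 and Obsl1 were close to the limit of detection. Mybpc2 had 6414 reads in replicate 1 and 3260 in replicate 2, which is 6188 and 2373 CPM, with a mean of 4280 ± 2698 (SD, n = 2). The M-protein gene Myom2 had 798 and 1259 reads, or 770 and 916 CPM (843 ± 103). The slow form Mybpc1 had 1074 and 301 reads, or 1036 and 219 CPM (628 ± 578). The SD of Mybpc1 was close to its mean, the widest spread for its level among the 6 genes with more than 200 reads.

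Myom1, which encodes myomesin, had 477 and 842 reads, or 460 and 613 CPM (537 ± 108). Mybph had 209 and 471 reads, or 202 and 343 CPM (272 ± 99.8). Smpx had 237 and 345 reads, or 229 and 251 CPM (240 ± 15.9), the narrowest spread for its level among the 8. Obsl1 had 11 and 5 reads (7.13 ± 4.93 CPM) and Myom3 had 9 and 5 (6.16 ± 3.57 CPM). The low pair thus rested on a few reads in each library.

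Levels of different genes were compared per kilobase of the leading annotated transcript. As a read stands for a molecule, counts need not rise with transcript length, and this scale then raises genes with short transcripts. On this scale Mybpc2 came first with a mean of 1185 CPM per kilobase (1714 and 657), and Smpx, whose transcript of 1152 bases is the shortest, came second with 208 (198 and 218). The means were 166 for Myom2 (152 and 181), 160 for Mybpc1 (264 and 55.9), 149 for Mybph (110 and 188) and 101 for Myom1 (86.6 and 115), with 1.25 for Obsl1 and 1.11 for Myom3. In this order the libraries of Mybpc2 and Smpx, of Smpx and Myom2, and of Myom1 and Obsl1 did not overlap. The remaining neighbours (Myom2 and Mybpc1, Mybpc1 and Mybph, Mybph and Myom1, Obsl1 and Myom3) overlapped. The second place of Smpx depended on the division by length. By mean CPM Smpx (240) came after Myom2 (843), Mybpc1 (628), Myom1 (537) and Mybph (272). Per kilobase and by CPM, Mybpc1 lay above Myom1 and Myom2 in replicate 1 and below both in replicate 2. On reads outside incomplete and genomic models, Mybpc1 lay above both in each library. It then had 949 reads in replicate 1, against 429 for Myom2 and 204 for Myom1. In replicate 2 it had 220 reads, against 156 for Myom2 and 52 for Myom1. The fast form Mybpc2 exceeded the slow form Mybpc1 by 6.49 times per kilobase in replicate 1 (95% exact interval 6.08 to 6.93) and by 11.8 times in replicate 2 (10.5 to 13.3). Myom2 exceeded Myom1 by 1.75 times (1.56 to 1.97) and 1.57 times (1.43 to 1.71). Both orders were the same in the libraries, and the intervals for the C proteins did not overlap between them. The same held without the division by length, where Mybpc2 exceeded Mybpc1 by 5.97 times in replicate 1 and 10.8 times in replicate 2. With incomplete and genomic models left out, Mybpc2 exceeded Mybpc1 by 5.82 and 8.09 times per kilobase and Myom2 exceeded Myom1 by 2.20 and 3.14 times. These intervals cover counting error only, since the reads carry no count of original molecules, and the same holds for every interval below.

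**Figure D1:**
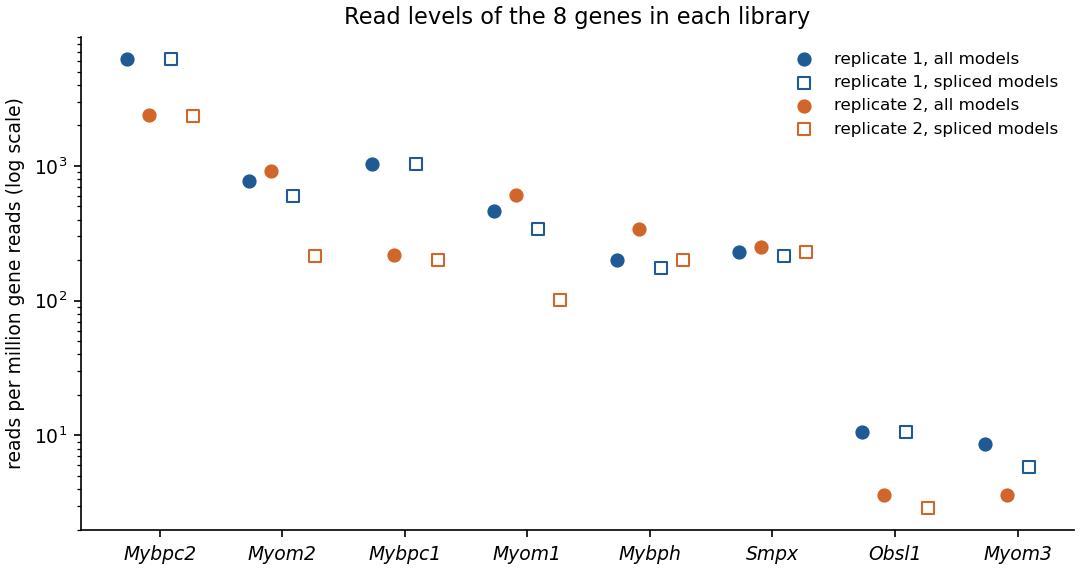
CPM of the 8 genes on a log axis, with filled circles for all models and open squares for spliced models of at least 2 exons, coloured by library. Myom1 and Myom2 are at similar height in both libraries when all models are counted, and lie lower in replicate 2 when only spliced models are counted; Myom3 had no spliced read in replicate 2 and that point is not drawn.

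Mybpc1 and Mybpc2 were lower in replicate 2 than in replicate 1. The log2 ratio of replicate 2 over replicate 1 was −2.24 for Mybpc1 (exact binomial test, Benjamini-Hochberg adjusted p = 7.35e-153) and −1.38 for Mybpc2, whose adjusted p fell under the smallest number that could be written. These were the genes among the 8 (2 of 8) that passed the threshold of an adjusted p under 0.05 and a change of at least 2-fold, both higher in replicate 1. Among all 8339 genes tested the same threshold called 1458, or 17.5%, of which 997 were higher in replicate 1 and 461 in replicate 2. The split depended on scaling: with TMM library sizes 542 were higher in replicate 1 and 801 in replicate 2, with DESeq2 size factors 534 and 840, and TMM moved the median log2 ratio of all genes from −0.28 to −0.02.

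The ratio was 0.76 for Mybph (exact binomial test, adjusted p = 1.33e-09), which missed 2-fold. With TMM sizes it was 1.02 and with DESeq2 size factors 1.03, and Mybph then passed the threshold. The ratios were 0.41 for Myom1 (exact binomial test, adjusted p = 6.14e-06), 0.25 for Myom2 (adjusted p = 0.000881) and 0.13 for Smpx (adjusted p = 0.465). Myom3 (−1.20, adjusted p = 0.342) and Obsl1 (−1.47, adjusted p = 0.165, exact binomial test) had differences that were not detectable at this depth. With the trend of the ratio on model length removed, Mybpc2 gave −0.72 and no longer passed, and Myom1 gave 1.01 and passed. The median over the 8 genes was −0.53, against −0.28 over all genes tested. Such a test compares these 2 libraries and not a condition, and fewer fibres of a type cannot be told apart from less RNA per fibre in bulk muscle.

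Summed levels of the skeletal fibre markers were 269597 CPM in replicate 1 and 173306 CPM in replicate 2. The markers did not move together: the fast myosin Myh4 had 14068 and 16533 CPM, and Ckm had 74418 and 65797 CPM. Summed levels of the slow fibre markers were 315 and 672 CPM, and those of 5 fibroblast markers, all with reads, were 3560 and 936 CPM. The slow myosin Myh7 stood at 75.3 and 67.7 CPM. Endothelial markers (5 of 5 with reads) summed to 48.2 and 80.1 CPM, and immune markers (4 of 5, with Ptprc at 0) to 123 and 83.7 CPM. The part of these differences in the lower Mybpc1 and Mybpc2 was not tested.

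The direction for the myomesin genes turned when partial reads were set aside. Counting only annotated models and models with a new combination of splice sites or a new junction, Myom1 had 204 reads in replicate 1 and 52 in replicate 2, and Myom2 had 429 and 156. The log2 ratios were then −2.19 for Myom1 (exact binomial test, adjusted p = 1.81e-26) and −1.69 for Myom2 (adjusted p = 5.14e-39). On this count 4 of the 6 genes with enough reads passed the threshold, all higher in replicate 1, against 22.8% of all genes tested. Over all genes 1213 of the 1551 called were also higher in replicate 1, and the median log2 ratio was −0.42. Mybpc1 kept its direction with 949 and 220 reads (−2.34), as did Mybpc2 with 5089 and 1639 (−1.87). Mybph, with 120 and 132 reads, gave −0.09 and Smpx, with 221 and 309, gave 0.25.

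Models of 1 exon at the 3′ end held the larger part of the myomesin reads in replicate 2. A model of 1 exon and 781 bases, which covers the last exon of Myom1 (chr17:71126076-71126856), held 122 Myom1 reads in replicate 1 and 700 in replicate 2. That was 25.6% and 83.1% of the gene's reads. Spliced Myom1 reads numbered 354 and 138. For Myom2 a genomic model of 1 exon and 676 bases (chr8:15132645-15133320) held 181 and 961 reads, or 22.7% and 76.3%, and spliced reads numbered 615 and 295. This model began where the last exon of Myom2-201 begins and stopped 221 bases before its annotated end. In that exon of 897 bases, the 20 bases after the stop held 5 A, a count that 48.9% of windows of that size in the exon reach or pass. The tables give the models' coordinates and not those of single reads.

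Models of the 3′ end also held a larger share of Mybpc2 and Mybph reads in replicate 2. The full Mybpc2-201 model of 28 exons held 75.9% of Mybpc2 reads in replicate 1 and 47.1% in replicate 2, while a model of its last 3 exons (468 bases) held 3.06% and 15.8% and one of its last 2 exons (262 bases) held 0.733% and 6.26%. In Mybph the leading model in replicate 2 had 1 exon and 288 bases at the 3′ end, with 196 of 471 reads, and a genomic model of 837 bases over the same end held 28 of 209 reads in replicate 1. Incomplete Mybph models of 9 exons held 20 and 25 reads, and those of 6 exons held 4 and 38. The share of the leading model differed in 4 of 6 genes tested, Mybpc2, Mybph, Myom1 and Myom2 (Fisher's exact test, adjusted p from 7.02e-170 to 8.4e-13), where 30.5% of all genes tested were called. Overlapping models of 1 exon counted as 1 model in this test, so the Mybph value joins the models of 837 and 288 bases. With models also matched by class, the leading Mybph model held 0 of 209 and 196 of 471 reads and was still called. Mybpc1-202 (36.2% and 38.2%) and Smpx-201 (71.7% and 72.8%) were not called. With partial models left out, 0 of 6 were called by the same test, where 1.39% of all genes tested were called, and 3 of the 6 had an unadjusted p under 0.05. Mybpc1-202 then held 41.0% in replicate 1 and 52.3% in replicate 2 (Fisher's exact test, adjusted p = 0.0684). Another model was then tested in Mybph, Myom1 and Myom2. Their leading models had 1 exon before, and now had 11 exons in Mybph and 37 in Myom1 and Myom2.

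Incomplete models made up 22.0% of the 8 genes' reads in replicate 1 (95% Wilson interval 21.2 to 22.9) and 54.3% in replicate 2 (53.0 to 55.6), genomic models aside. The corresponding shares over all genes were 11.4% and 17.5%. Per gene the share was 1.34% and 10.4% for Smpx, 11.6% and 26.9% for Mybpc1, 20.6% and 49.3% for Mybpc2, and 57.1% and 93.8% for Myom1. It was higher in replicate 2 in each of these. Nearly all incomplete Mybpc2 reads kept the 3′ end, 1316 of 1319 in replicate 1 and 1588 of 1594 in replicate 2.

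**Figure D2:**
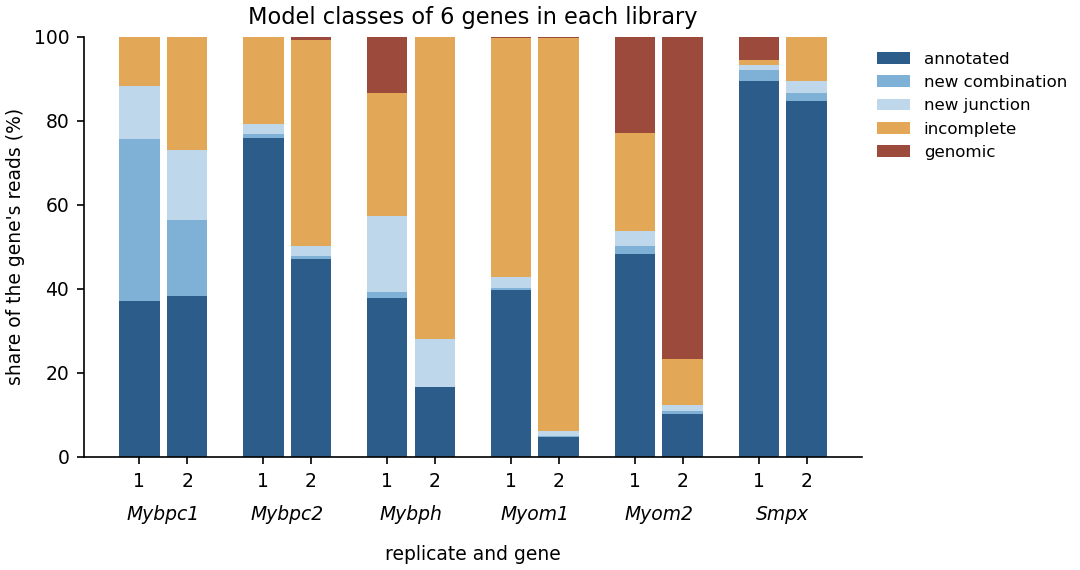
Share of each gene's reads in 5 model classes, as stacked bars that add to 100%, for the 6 genes with more than 200 reads, with replicate 1 and replicate 2 side by side. The incomplete class takes most of Myom1 in replicate 2 and the genomic class most of Myom2, while Smpx stays mostly annotated in both libraries.

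In Mybpc2, Myom1, Myom2 and, by less, Mybpc1, fewer reads spanned the first splice junction than the last. For Mybpc2-201 the first of 27 junctions had 5060 reads and the last 6402 in replicate 1, against 1623 and 3224 in replicate 2. For Myom1-203 the first of 36 junctions had 198 reads and the last 349 in replicate 1, against 46 and 134 in replicate 2. Myom2-201 had 408 and 611 reads at these places in replicate 1 and 144 and 291 in replicate 2. As a share of the last junction, the first therefore held 56.7% and 34.3% in Myom1, 66.8% and 49.5% in Myom2, and 79.0% and 50.3% in Mybpc2. Mybpc1-202 had 955 reads at its first and 1025 at its last junction in replicate 1 (93.2%), and 219 and 265 in replicate 2 (82.6%). The first junction held a smaller share in replicate 2 for each of these genes. In replicate 2 the reads of Mybpc2-201 went from 3224 at the last junction to 3021 and 2504 at the preceding ones, larger steps than elsewhere along that transcript. Smpx-201 had 216 reads at its first and 189 at its last junction in replicate 1 and 299 and 277 in replicate 2. Its last junctions border the optional 35-base exon, which 35 and 40 reads skipped. With such reads counted, 219 Smpx reads were joined at the first exon and 224 at the last in replicate 1, and 303 and 317 in replicate 2. Mybph-201 had 114 and 130 reads at its first and last junctions in replicate 1 and 130 and 179 in replicate 2. The last of these leaves out 49 and 95 reads that used an acceptor 3 bases upstream. The junction before it had 180 reads in replicate 1 and 270 in replicate 2.

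**Figure D3:**
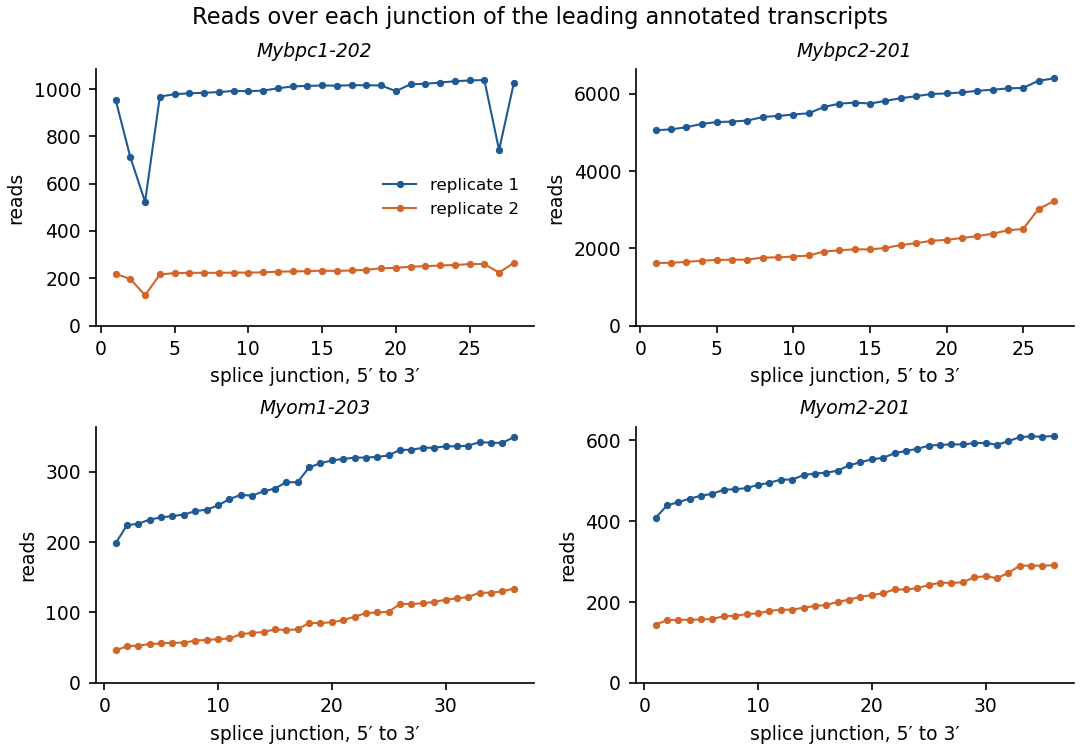
Reads over each splice junction of Mybpc1-202, Mybpc2-201, Myom1-203 and Myom2-201, numbered from the 5′ end, with a line per library. The lines for Mybpc2, Myom1, Myom2 and, by less, Mybpc1 are higher at the 3′ end than at the 5′ end. That of Mybpc2 in replicate 2 has a step over the last junctions, and the dips in Mybpc1 at junctions 2, 3 and 27 mark optional exons.

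Mybpc1 (chr10:88518279-88605152, minus strand) was the member with the most exon choice. Mybpc1-202, the leading annotated transcript, has 29 exons and held 389 and 115 reads, and the other annotated transcript with reads, Mybpc1-201, held 9 and 0. New-combination and new-junction models together held 551 of 1074 Mybpc1 reads in replicate 1 and 105 of 301 in replicate 2. The commonest of them in replicate 1, of 28 exons, held 210 and 19 reads, and a chain of 30 exons held 106 and 6. Chains of 32 exons (112 and 22 reads) and 31 exons (34 and 41 reads, the commonest in replicate 2) were labelled as new junction in one library and new combination in the other. A model of 1 exon and 291 bases at the 3′ end held 0 and 26 reads. Of its 29 annotated internal exons with enough reads, 26 were kept in over 95% of reads. Choice lay in 3 annotated exons and 2 exons that the annotation does not hold. The sequences of the annotated ones, cut from GENCODE M21 transcripts on build mm10 and given 5′ to 3′, show what each adds to the transcript.
Mybpc1 42-base exon, chr10:88582007-88582048: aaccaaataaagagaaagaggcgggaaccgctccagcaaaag
Mybpc1 54-base exon, chr10:88537466-88537519: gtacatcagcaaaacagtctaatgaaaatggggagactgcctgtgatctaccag
Mybpc1 59-base exon, chr10:88521277-88521335: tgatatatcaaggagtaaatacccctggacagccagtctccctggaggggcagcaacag

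The 42-base exon near the 5′ end, coding in Mybpc1-202, was kept in 711 of 962 informative reads in replicate 1 (73.9%, Wilson interval 71.0 to 76.6) and in 197 of 221 in replicate 2 (89.1%, 84.4 to 92.6). Downstream of it lay the unannotated pair, of 39 bases (chr10:88575842-88575880) and 36 bases (chr10:88575129-88575164). The 36-base exon was kept in 208 reads and skipped in 756 in replicate 1 (21.6%, 19.1 to 24.3), and kept in 72 and skipped in 148 in replicate 2 (32.7%, 26.9 to 39.2). The pair was kept or skipped together on nearly all reads. On reads that kept the 36-base exon the 39-base exon was present in 205 of 205 in replicate 1 and 72 of 72 in replicate 2, and on reads that skipped it in 1 of 756 and 0 of 148. Intervals of the libraries did not overlap for either the 42-base or the 36-base exon.

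These exons, and the 54-base exon annotated in Mybpc1-206, have lengths that are a multiple of 3, which leaves the reading frame after them as it is if they hold no stop codon. The bases of the unannotated pair were not analysed here. The 54-base exon was rare, with 22 reads of 1016 in replicate 1 (2.17%, 1.43 to 3.26) and 2 of 246 in replicate 2 (0.81%, 0.22 to 2.92). The 59-base exon is coding in Mybpc1-201 and is followed by 2 exons. It was kept in 281 of 1039 reads in replicate 1 (27.0%, 24.4 to 29.8) and in 38 of 264 in replicate 2 (14.4%, 10.7 to 19.1), and these intervals did not overlap either.

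Its length is no multiple of 3, and the annotated stop codon changes with it. The following exon, of 43 bases, starts with the bases below, in which the capitals mark both annotated stop codons. With the 59-base exon, 3 coding bases of the 43-base exon are read before the tag stop (Mybpc1-201). Without it, 11 are read before the taa stop (Mybpc1-202). The exon thus gives Mybpc1-201 a coding end of 62 bases after the last shared exon, in place of 11.
Mybpc1 start of the 43-base exon, chr10:88519924-88519943: tcgTAGcacagTAAggatgt

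The choices at the 5′ and 3′ ends of Mybpc1 went together on reads. Where a read kept the 36-base exon, it also kept the 59-base exon in 138 of 200 cases in replicate 1 (69.0%, 62.3 to 75.0). Where it skipped the 36-base exon, the 59-base exon was kept in 120 of 748 (16.0%, 13.6 to 18.8). In replicate 2 the same shares were 24 of 69 (34.8%, 24.6 to 46.6) and 7 of 147 (4.76%, 2.33 to 9.50). Within each library the intervals did not overlap. This pair of exons was chosen after its values were seen, and reads of a library share its amplification.

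All 5 exons were resolved on 943 of 1074 Mybpc1 reads in replicate 1 and on 216 of 301 in replicate 2. They fell into 13 combinations in replicate 1 and 8 in replicate 2, and each of the 8 was also in replicate 1. The 42-base exon alone was the commonest combination in both, with 404 reads (42.8%) and 118 reads (54.6%). In replicate 1 it was followed by reads with none of the 5 (219 reads, 23.2%), and in replicate 2 these made up 9.26% (20 reads). The combination of 42, 39 and 36 bases with the 59-base exon took 12.5% and 10.6%, and the same without the 59-base exon took 5.20% and 19.4%. The annotated Mybpc1-201, which has the 59-base exon and none of the others, corresponds to a combination found in 10 reads of replicate 1 only. Across the gene, 10 unannotated exon chains were found in both libraries, of 55 in replicate 1 and 16 in replicate 2, and they held 492 of 551 and 99 of 105 of the reads in such chains.

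**Figure D4:**
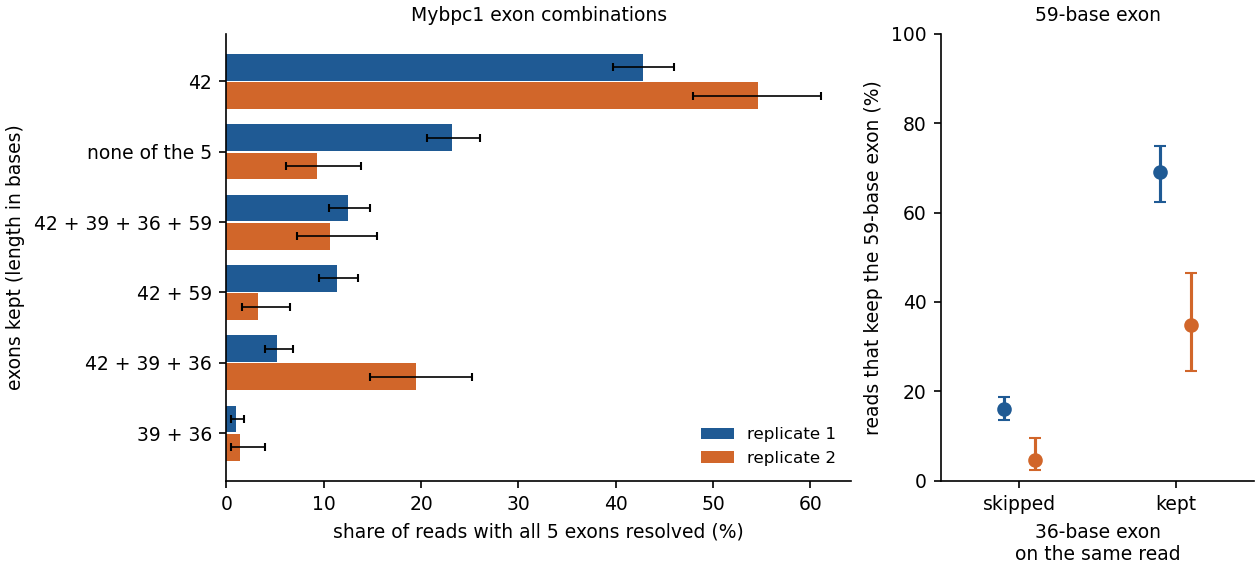
Left, share of Mybpc1 reads in the 6 commonest combinations of 5 optional exons, named by length in bases, per library with 95% Wilson intervals. Right, share of reads that keep the 59-base exon among reads that skip or keep the 36-base exon; in both libraries the share is higher where the 36-base exon is kept.

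Mybpc2 (chr7:44501699-44524656, minus strand) showed almost no exon choice. All 26 of its internal exons were kept in over 95% of reads. An exon of 30 bases is shown because its size is like that of the optional exons of Mybpc1. It was kept in 5777 reads and skipped in 12 in replicate 1 (99.8%), and kept in 1976 and skipped in 6 in replicate 2 (99.7%). Unannotated chains of Mybpc2 held 223 and 104 reads, of which 139 and 65 were in 26 chains found in both libraries.
Mybpc2 30-base exon, chr7:44512092-44512121: aaatcaaagtggagtatgtacctaagcaag

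Mybph (chr1:134193448-134201232, plus strand) used a pair of splice acceptors 3 bases apart at its last exon, beyond the stop codon. The intron from 134200447 ended before 134200948, the annotated first base of the last exon, in 130 reads of replicate 1 and 179 of replicate 2. It ended before 134200945 in 49 and 95 reads. The upstream acceptor thus had 27.4% of these reads in replicate 1 (Wilson interval 21.4 to 34.3) and 34.7% in replicate 2 (29.3 to 40.5), and the intervals overlapped. The sequence, read from Mybph-202, which retains the intron, has AG in tandem, shown in capitals before each acceptor. The acceptor counts as a new junction, so the 11-exon chain that uses it is an unannotated model; it held 29 and 49 reads, next to 79 and 79 in Mybph-201.
Mybph end of the last intron, chr1:134200933-134200956: tatctcttctAGcAGcttggtcac

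The 3 myomesin family genes have the same layout. Myom1-203, Myom2-201 and Myom3-201 have 37 exons each, and 27 of these have the same length at the same place in Myom1 and Myom2, 23 in Myom1 and Myom3, and 26 in Myom2 and Myom3. In Myom1 and Myom2 the 14 exons before the last are all equal in length. Exon choice was rare: 35 of the 36 measured internal exons of Myom1 and all 35 of Myom2 were kept in over 95% of reads.

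Myom1 (chr17:71002633-71126856, plus strand) had, among its annotated models, 183 and 41 reads in Myom1-203, 5 and 0 in Myom1-202 and 1 and 0 in Myom1-208. These stand beside the 122 and 700 reads of its last exon alone. The internal exon kept in under 5% of reads was one of 294 bases that is coding in Myom1-202. Myomesin with an additional segment in the middle of the protein is known as EH-myomesin and marks embryonic heart and some slow fibres; whether Myom1-202 encodes that form was not checked. The exon was kept in 9 of 294 informative reads in replicate 1 (3.06%, Wilson interval 1.62 to 5.71) and in 2 of 78 in replicate 2 (2.56%, 0.71 to 8.88), and the intervals overlapped. It falls under the 5% set for description and was singled out after its values were seen.
Myom1 294-base exon, chr17:71082203-71082496: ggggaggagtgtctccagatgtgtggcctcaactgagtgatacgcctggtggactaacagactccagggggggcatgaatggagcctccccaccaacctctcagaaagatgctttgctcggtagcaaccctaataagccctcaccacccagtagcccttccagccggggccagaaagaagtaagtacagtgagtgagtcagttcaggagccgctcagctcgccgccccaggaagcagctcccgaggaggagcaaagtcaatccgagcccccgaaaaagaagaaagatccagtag

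Near its 3′ end Myom1 is annotated with a choice between exons of 23 bases that lie 309 bases apart. Myom1-201 has the upstream exon and Myom1-203 the downstream one. Of 23 positions 6 are equal, and capitals mark the 17 that differ. All reads with either exon used the downstream one, 341 in replicate 1 and 127 in replicate 2, so that the upstream exon could have a share of up to 0.88% in replicate 1 and 2.36% in replicate 2. The downstream exon was skipped in 5 and 3 reads.
Myom1 upstream 23-base exon, chr17:71120794-71120816: GAaGAGCCcACttgACACTGTTa
Myom1 downstream 23-base exon, chr17:71121126-71121148: ACaAGCTGcCAttgCTGAAAAAa

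Myom2 (chr8:15057653-15133541, plus strand) was led among spliced models by Myom2-201, with 385 and 130 reads. An unannotated exon of 126 bases (chr8:15060799-15060924) lay between its first and second exons. It was kept in 9 of 445 reads in replicate 1 (2.02%) and 2 of 156 in replicate 2 (1.28%), too few to tell the libraries apart. Myom3 (chr4:135759715-135815564, plus strand) had 1 read of the full 37-exon transcript and 1 of Myom3-203, both in replicate 1. All 5 Myom3 reads of replicate 2, and 3 of 9 in replicate 1, were of 1 exon at its 3′ end. Obsl1 (chr1:75479310-75506452, minus strand) had 3 reads of Obsl1-202 and 1 of a further annotated transcript in replicate 1, and no annotated Obsl1 model had a read in replicate 2.

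Smpx (chrX:157698910-157752591, plus strand) has the shortest transcript and was the most completely read. Smpx-201, with 6 exons, held 170 reads in replicate 1 and 251 in replicate 2, and Smpx-203, without a 35-base exon, held 30 and 35. Smpx-207 held 12 and 5 reads and Smpx-205 held 0 and 1. Models of 1 exon at the 3′ end held 13 reads in replicate 1 (309 bases, genomic) and 28 in replicate 2 (418 bases, incomplete). Smpx-201 and Smpx-203 have the same coding sequence of 255 bases. The 35-base exon (chrX:157751595-157751629) lies after the stop codon, and GENCODE labels Smpx-201 as a target of nonsense-mediated decay and Smpx-203 as protein coding. The exon was kept in 188 of 223 reads in replicate 1 (84.3%, Wilson interval 79.0 to 88.5) and in 276 of 316 in replicate 2 (87.3%, 83.2 to 90.6), which overlapped. A 40-base exon of Smpx-207, which shortens the annotated coding sequence to 153 bases, was kept in 15 of 222 (6.76%) and 7 of 310 reads (2.26%).

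**Figure D5:**
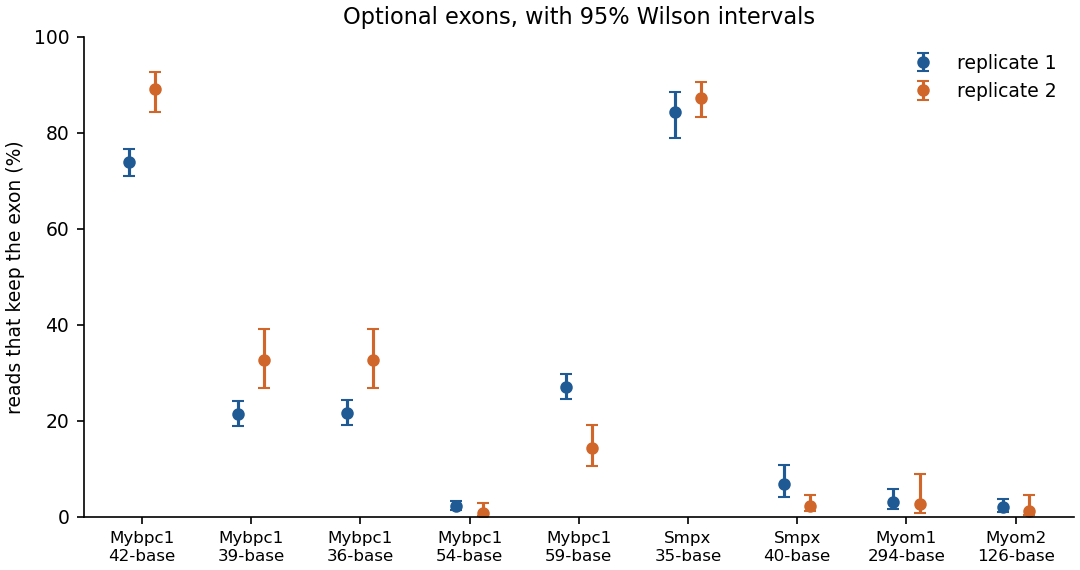
Share of informative reads that keep each optional exon, named by gene and length, with 95% Wilson intervals and a point per library. The libraries separate at the 42-, 39-, 36- and 59-base exons of Mybpc1 and overlap at the 35-base exon of Smpx and the 294-base exon of Myom1.

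A list of 24 genes that work with these proteins set the members beside their surroundings: titin, ubiquitin ligases and adaptors of the M-band, chaperones of myosin, the Obsl1 partners Cul7, Ccdc8 and Fbxw8, the cardiac relatives Mybpc3 and Mybphl, and the skeletal myosins. Reads were found for 22 of the 24, and Mybpc3 and Mybphl had none. Of 19 tested, 3 passed the threshold, all higher in replicate 1, against 17.5% of all genes tested. They were the fast myosin Myh1, with 2599 and 754 reads (log2 ratio −2.19), and the muscle ubiquitin ligases Trim55, with 58 and 36 (−1.09), and Trim63, with 358 and 237 (−1.001). Under TMM or DESeq2 scaling Myh1 was the only one called. Without models under 50 bases Trim63 gave −0.976 and was no longer called. Smyd1, also on the list, was then called, with 218 and 73 reads (−1.95), against 218 and 192 reads over all models. The median over the list was −0.59.

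Titin, Ttn, which spans from Z-disc to M-band, had 263 and 435 reads (log2 ratio 0.32). Ckm, the muscle creatine kinase of which a part binds the M-band, had 77131 and 90410 reads (−0.18). Neither passed 2-fold, and the sign of Ckm turned to 0.08 under TMM and 0.09 under DESeq2 scaling. Of titin reads, 54 of 263 and 46 of 435 were in annotated, new-combination or new-junction models.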

How the data were processed

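The deposited tables give counts of reads per transcript model, not normalized, with 1 table per library and no pooling, per the file headers. Models were assigned to GENCODE M21 on mm10, per the files' notes, and unannotated models carry the name TALON. The sources used here name no aligner and no software version. Models were joined to their exon chains from the paired annotation files. Spike-in reads (3.71% and 2.44% of 1106945 and 1514119 reads) were left out of library totals, which were reads in annotated genes.

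Gene counts were compared with a two-sided exact binomial test on these totals (genes with at least 10 reads in sum, 0.5 reads added for ratios, Benjamini-Hochberg adjustment over all genes), and leading model shares with Fisher's exact test (at least 50 reads in each library, at least 10 points). With 1 library on each side, edgeR's and DESeq2's dispersion tests could not be used, and their scaling alone was taken (edgeR 4.0.16, DESeq2 1.42.0). Exon shares count reads with an internal exon at the exact splice sites against reads with a junction over it; annotated exons with at least 10 informative reads in both libraries and a mean share of 5 to 95% were described, with 95% Wilson intervals. Models with at least 5% of a gene's reads, annotated models with reads, partner genes that passed the threshold, and Ttn and Ckm were named. Values of 1 further gene of the partner list are not reported here. Both tests were first run on simulated counts. Exon sequences were cut from the GENCODE M21 transcripts of the same build. The members, the partner list and the cell type markers were chosen with earlier results of these data known. Python 3.11.15, scipy 1.17.1 and statsmodels 0.14.6 were used.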

Additional observations from a re-analysis of the deposited data

Results flagged for a closer look

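Models on the opposite strand, which belong to no annotated gene and enter none of the counts above, had more than the 3 reads that a count of 0 allows at 4 of the genes. They had 7 reads over Mybpc1 in replicate 1 and 104 in replicate 2, and 10 over Mybpc2 in replicate 2. Over Myom1 they had 8 and 42, and over Myom2 8 and 79. At Myom2 most lay in a model of 1 exon (chr8:15073390-15073840 in replicate 2, 68 reads, and 8 reads in replicate 1), inside an exon of Myom2-202 and outside those of Myom2-201. At Mybpc1, 56 reads of replicate 2 were in a model at chr10:88536311-88537466, and 30 were in a model at chr10:88575880-88580434, with an edge on the first base of the 39-base exon. At Myom1, 22 were at chr17:71101268-71101789. Each of these models had 1 exon, and the source of their reads was not tested.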

How the results depend on the processing

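Alternatives covered the library scaling, the classes of models counted, low-count filters, a length trend, models under 50 bases, splice site tolerance and leaving out a library. Of 36 alternative values of the main results 28 moved by at most 1.5 times (counts) or 1 SD (levels and shares), and 8 moved by more. With 2 libraries, leaving out 1 always moves a mean by less than 1 SD. Levels and shares with a library left out are thus among the 28 by design, which shows no stability. With partial models left out, 4 members and 8 partner genes were called, and 20 genes and 0 members had a leading share that differed. Another model then led in Mybph, Myom1 and Myom2. With the length trend removed, 705 genes and 1 partner gene were called. TMM and DESeq2 scaling each left 1 partner gene. Directions turned, with partial models left out, for Mybph (−0.094), Myom1 (−2.19), Myom2 (−1.69) and Ttn (−0.46); with the length trend removed, for Smpx (−0.20) and Ckm (0.38); without models under 50 bases, for Ttn (−0.33); and for Ckm under TMM (0.078) and DESeq2 scaling (0.092). With the length trend removed Mybpc2 was no longer called (−0.72) and Myom1 was (1.01). The cause was not tested. Leaving out a library changed the summed level of the 8 genes from a mean of 6813 CPM to 4722 and 8904 CPM, their incomplete share from 38.2% to 22.0 and 54.3%, and the number of exons with a share of 5 to 95% from 3 to between 3 and 4. No test between libraries was possible with a library left out. No paired analysis was possible because there is 1 group. The depth limits Myom3 and Obsl1, whose reads were too few for any split.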

Other observations

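The share of reads outside partial models varied among other sarcomere genes. Annotated, new-combination and new-junction models held 16 of 166 reads in replicate 1 and 7 of 251 in replicate 2 of Cmya5, which encodes the muscle protein myospryn. The fast myosin Myh4 had 6666 of 14581 and 1540 of 22718, while Myh1 had 1595 of 2599 and 210 of 754 and the slow myosin Myh7 had 58 of 78 and 27 of 93. The shorter Trim54, a muscle ubiquitin ligase, had 386 of 407 and 308 of 384. These genes were picked from the partner list after their values were seen.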
